A study of Mus musculus with 38 samples.

Results

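The comparison described here set Neuro2A cells after 12 h of retinoic acid against the same line at 0 h, on 14 of the 38 arrays of the series. Neuro2A is an established mouse neuroblastoma line that extends neurites under retinoic acid. The 7 arrays of the treated group held RNA from cells precultured for 48 h in 10% fetal bovine serum, then moved to 2% serum with 20 uM all-trans-retinoic acid for 12 h. The 7 arrays of the 0 h control held RNA from cells harvested at the end of that preculture in 10% serum, with no retinoic acid. Members were chosen by the array titles. Each replicate pooled 4 to 6 plates of the one line. The labels do not say whether replicates were separate cultures, so the p-values measure the spread between these samples, which may be technical. Since the labels name neither a vehicle control nor a control for the change of medium, the ligand, the serum step and the longer culture cannot be told apart in this comparison.

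All-trans-retinoic acid, a derivative of vitamin A, enters the nucleus and binds retinoic acid receptors, which sit on DNA as dimers with retinoid X receptors. Ligand binding exchanges co-repressors for co-activators at the receptors' target genes. In neuroblastoma cells the ligand slows proliferation and starts neuronal differentiation, and direct targets such as Rarb and Cyp26a1 are known to respond early.

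The arrays carried oligonucleotides for mouse KIAA genes, a collection of long and mostly brain-expressed transcripts, and were hybridised in a single colour with Cy5-labelled polyadenylated RNA. They measured 576 probes, of which 473 had a named gene and 103 had none here. Rarb and Cyp26a1 were not among the named genes. Values below are log2 intensities after quantile normalization, and a log2 fold change is the 12 h mean minus the 0 h mean, tested with limma. Over all probes the median standard error (SE) of a log2 fold change was 0.18, a factor of 1.14.

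Some arrays stood apart from the rest. A lowest deposited value of 0.540, the floor, was shared by 30 of the 38 arrays and marks a probe with only an upper limit. Replicates 2 and 3 of the 12 h group never reached it, while the 0 h arrays all did. The spread of an array, as the interquartile range of its deposited log2 values, was 1.13 ± 0.54 in the 12 h group and 1.51 ± 0.22 in the 0 h group (SD, n = 7 each), with replicates 2 and 3 at 0.283 and 0.438. The group means of this range differed by -0.38, with p = 0.122 in a two-sided exact permutation test over 3432 splits. No difference was thus shown with 7 arrays in each group, which does not make the ranges equal. The other 5 arrays of the 12 h group averaged 1.44 ± 0.15 (SD, n = 5), given with no test because the arrays left out are those with the narrowest range. Replicate 5 of the 12 h group had the lowest median rank correlation with the other arrays among the 14, at 0.698. The median rank correlation was 0.797 within the 12 h group, 0.807 within the 0 h group and 0.814 between them.

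**Figure D1:**
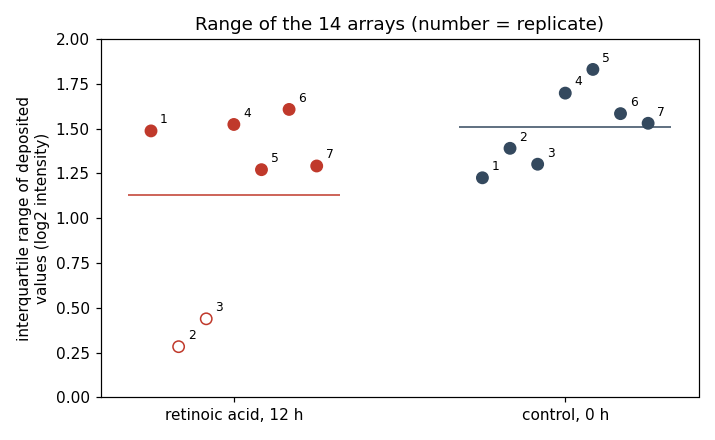
Interquartile range of the deposited log2 intensities (vertical axis) for the 7 arrays of the 12 h retinoic acid group (left) and the 7 arrays of the 0 h control (right), numbered by replicate. Lines are group means, and open circles are arrays that never reach the floor: replicates 2 and 3 of the 12 h group, at 0.283 and 0.438.

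After 12 h no probe passed the threshold, an adjusted p under 0.05 in limma. The calls were 0 of 576 probes (0%), the smallest adjusted p was 0.393, and in no probe did the 7 treated arrays stand apart from the 7 control arrays without overlap (0%). Unadjusted p-values fell under 0.05 for 23 probes, 3.99% of those tested, where 28.8 would have reached it by chance. Of these, 12 probes (2.08%) were higher and 11 (1.91%) lower after 12 h. Over all probes 274 were higher and 302 lower, with a median log2 fold change of -0.01, whereas as deposited, with no further normalization, 341 were higher and 235 lower, with a median of 0.08. Unnamed probes were 33 higher and 70 lower, against 94 and 9 as deposited. Of these 103 probes, 77 lay at the floor on most of the 14 arrays, so their signs say little about expression. Named genes were 241 higher and 232 lower, against 247 and 226 as deposited. Across the 576 probes, which share the same arrays, the log2 fold change and the level had a correlation of -0.583 as deposited and -0.0614 after quantile normalization. The 95% interval of the change, unadjusted for the number of probes, lay within a 2-fold change in either direction for 554 probes (96.2%), and within 1.5-fold for 367. A fitted change beyond 1.5-fold occurred in 6 probes and one beyond 2-fold in 1 probe, the unnamed probe 439. Without 12 h replicate 5, 2 probes passed in limma, Tenm4 and Atmin, for both of which it was the lowest treated array. Without the 8 arrays of the series that never reach the floor, which include 12 h replicates 2 and 3, 0 passed and 22 had an unadjusted p under 0.05.

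Among the 20 named genes with an unadjusted p under 0.05, 9 were higher after 12 h and 11 lower. Sizes were modest: the 12 leading genes on each side ran between 0.17 and 0.69 in absolute log2 fold change. The higher ones were led by a neuronal adhesion receptor, a zinc-finger factor and a lipid phosphatase, and the lower ones by an actin-binding protein and a further zinc-finger factor. In 23 of these 24 genes at least 6 of 7 treated arrays lay on one side of the control mean, and in 11 genes all 7 did. Because the genes were ranked by these values, those counts describe the choice and are no test.

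**Figure D2:**
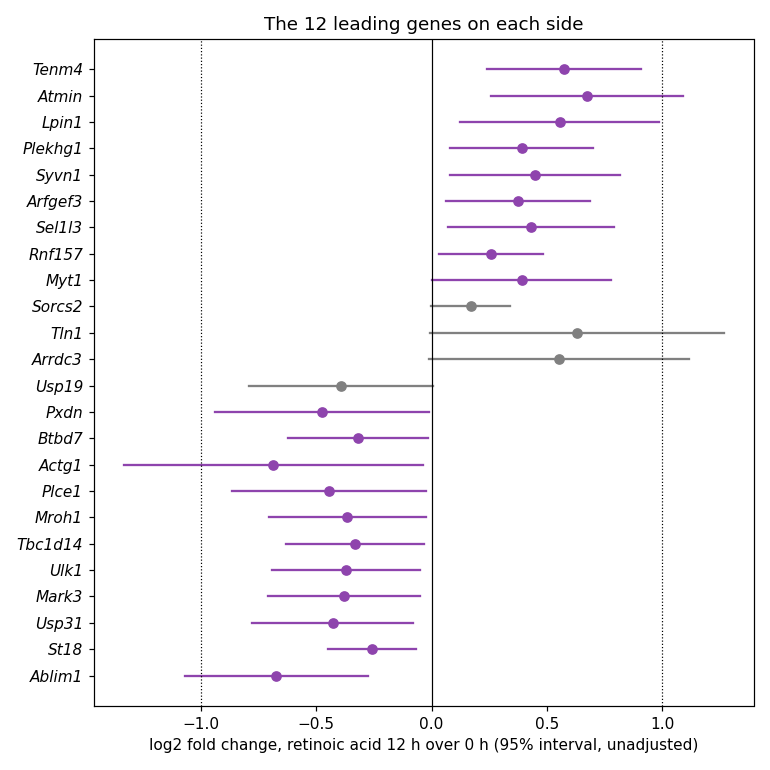
Log2 fold change of retinoic acid 12 h over 0 h (horizontal axis) with its unadjusted 95% interval for the 12 genes of smallest unadjusted p on each side. Purple marks an unadjusted p under 0.05, grey the others, and dotted lines mark a 2-fold change; the intervals of Tln1, Atmin and Arrdc3 pass the upper line and those of Ablim1 and Actg1 the lower one.

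Tenm4, a teneurin by which neurons recognise partner cells, had the smallest p. In the 12 h arrays its level ran between -0.81 and 0.57 with a median of 0.11, against -0.81 to -0.03 with a median of -0.78 in the 0 h arrays. The groups overlapped: 4 of the 7 treated arrays exceeded every control, while 12 h replicates 2, 5 and 7 did not, with replicate 5 the lowest. It was 1.49-fold higher after 12 h (log2 0.57 ± 0.16 SE, 95% interval 0.24 to 0.91, limma adjusted p = 0.393). It lay at the floor on 1 of 7 treated arrays and 4 of 7 controls, so some of the values behind its size are upper limits. Atmin, a zinc-finger protein that interacts with the ATM kinase of the DNA damage response, ran between 0.45 and 2.12 with a median of 1.46 in the 12 h arrays, against 0.52 to 1.15 with a median of 0.78 in the 0 h arrays. The other 6 treated arrays exceeded every control, and 12 h replicate 5 lay below every control. The change was 1.60-fold (log2 0.68 ± 0.20 SE, 95% interval 0.26 to 1.09, limma adjusted p = 0.393). Without 12 h replicate 5 both genes passed, with a log2 fold change of 0.71 for Tenm4 and 0.85 for Atmin (limma adjusted p = 0.0222 for each). That array was the lowest treated one for both genes, so leaving it out raises both, and these passes describe the choice of arrays. Neither gene passed when another single array was left out. The log2 fold change then fell as low as 0.48 for Tenm4 and 0.57 for Atmin, and the limma adjusted p reached 0.991 for each.

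Lpin1 encodes lipin 1, a phosphatidate phosphatase that makes diacylglycerol. Its level was 0.17 to 0.82 with a median of 0.67 in the 12 h arrays, against -0.25 to 0.34 with a median of -0.12 in the 0 h arrays. All 7 treated arrays lay above the control mean and 4 above every control, for a 1.47-fold difference (log2 0.56 ± 0.21 SE, limma adjusted p = 0.960). Plekhg1, a guanine nucleotide exchange factor, ran between -0.53 and 0.37 with a median of 0.01 in the 12 h arrays, against -0.79 to -0.12 with a median of -0.39 in the 0 h arrays. Here 6 of 7 treated arrays exceeded every control, and 12 h replicate 2 lay within the control range. The difference was 1.31-fold (log2 0.39 ± 0.15 SE, limma adjusted p = 0.960). Rnf157, a RING-finger ubiquitin ligase of brain, ran between -0.80 and -0.24 with a median of -0.49 in the 12 h arrays, against -0.81 to -0.67 with a median of -0.78 in the 0 h arrays. Its treated arrays exceeded every control in 6 of 7 cases, and 12 h replicate 3 was the exception. It was higher by 0.26 ± 0.11 SE on the log2 scale (limma adjusted p = 0.994), with 0 treated arrays and 4 of 7 controls at the floor.

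The remaining higher genes with an unadjusted p under 0.05 were Syvn1, Arfgef3, Sel1l3 and Myt1. Syvn1, the ubiquitin ligase of degradation at the endoplasmic reticulum, ran between 0.87 and 1.76 in the 12 h arrays and between 0.35 and 1.27 in the 0 h arrays, a log2 fold change of 0.45 ± 0.18 SE. Sel1l3 ran between 0.70 and 1.59 in the 12 h arrays, against 0.40 to 1.15 in the 0 h arrays, a log2 fold change of 0.43 ± 0.18 SE, with 6 of 7 treated arrays above every control. As deposited these changes were 0.11 for Syvn1 and 0.10 for Sel1l3. Arfgef3, of the family of ARF exchange factors, differed by 0.37 ± 0.15 SE, and all 7 treated arrays lay above the control mean. Just past that limit were Sorcs2, a sorting receptor for pro-neurotrophins (log2 0.17), Tln1, the talin that links integrins to actin (0.63), and Arrdc3, an arrestin-like adaptor of ubiquitin ligases (0.55). The value of Sorcs2 rests on 12 h replicate 3, since without that array it was 0.04, and 3 treated and 5 control arrays lay at the floor.

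Ablim1, a LIM protein that binds actin filaments, led the lower side. It ran between -0.62 and 0.57 with a median of 0.17 in the 12 h arrays, against 0.45 to 1.10 with a median of 0.73 in the 0 h arrays. All 7 treated arrays lay below the control mean and 6 below every control; 12 h replicate 1 was the one within the control range. It was 1.59-fold lower after 12 h (log2 -0.67 ± 0.20 SE, 95% interval -1.07 to -0.27, limma adjusted p = 0.393). St18, a zinc-finger factor of the Myt1 family, ran between -0.81 and -0.24 with a median of -0.66 in the 12 h arrays, against -0.71 to 0.03 with a median of -0.32 in the 0 h arrays. Treated arrays lay below the control mean in 6 of 7 cases and below every control in 2, a log2 fold change of -0.26 ± 0.09 SE (limma adjusted p = 0.865). As deposited that change was -0.12.

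Usp31, a deubiquitinase, ran between 0.34 and 0.99 with a median of 0.58 in the 12 h arrays, against 0.79 to 1.38 with a median of 1.00 in the 0 h arrays. All 7 treated arrays lay below the control mean and 5 below every control (log2 -0.43 ± 0.17 SE, limma adjusted p = 0.960). Mark3, a kinase that releases microtubule-associated proteins from microtubules, ran between 0.38 and 0.90 with a median of 0.62 in the 12 h arrays, against 0.60 to 1.43 with a median of 1.10 in the 0 h arrays, a log2 fold change of -0.38 ± 0.16 SE. Its treated arrays were all below the control mean, and 3 were below every control. Ulk1, the kinase that starts autophagy, had a log2 fold change of -0.37 ± 0.16 SE, and Tbc1d14, a Rab regulator that controls the traffic of Ulk1-positive membranes, one of -0.33 ± 0.15 SE. Plce1, a phospholipase C that acts downstream of Ras, had one of -0.44 ± 0.21 SE with all 7 treated arrays below the control mean. Mroh1 (-0.37), Btbd7 (-0.32) and Pxdn, a peroxidase of the extracellular matrix (-0.48), completed the lower genes with Actg1, one of the abundant genes, while Usp19, a deubiquitinase anchored at the endoplasmic reticulum, lay just past the limit (-0.39).

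The arrays that never reach the floor bore on some of these sizes. Without those 8 arrays the log2 fold change was 0.54 for Tenm4, 0.48 for Atmin, 0.54 for Plekhg1, 0.39 for Rnf157 and -0.58 for Ablim1. The remaining arrays did not overlap between groups in 2 of 576 probes, Plekhg1 and Rnf157. The treated arrays that had overlapped the controls, replicate 2 for Plekhg1 and replicate 3 for Rnf157, are among those left out. That separation therefore describes the choice of arrays. None of these genes passed in that fit, where the adjusted p in limma was 0.648 for Plekhg1 and Rnf157.

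**Figure D3:**
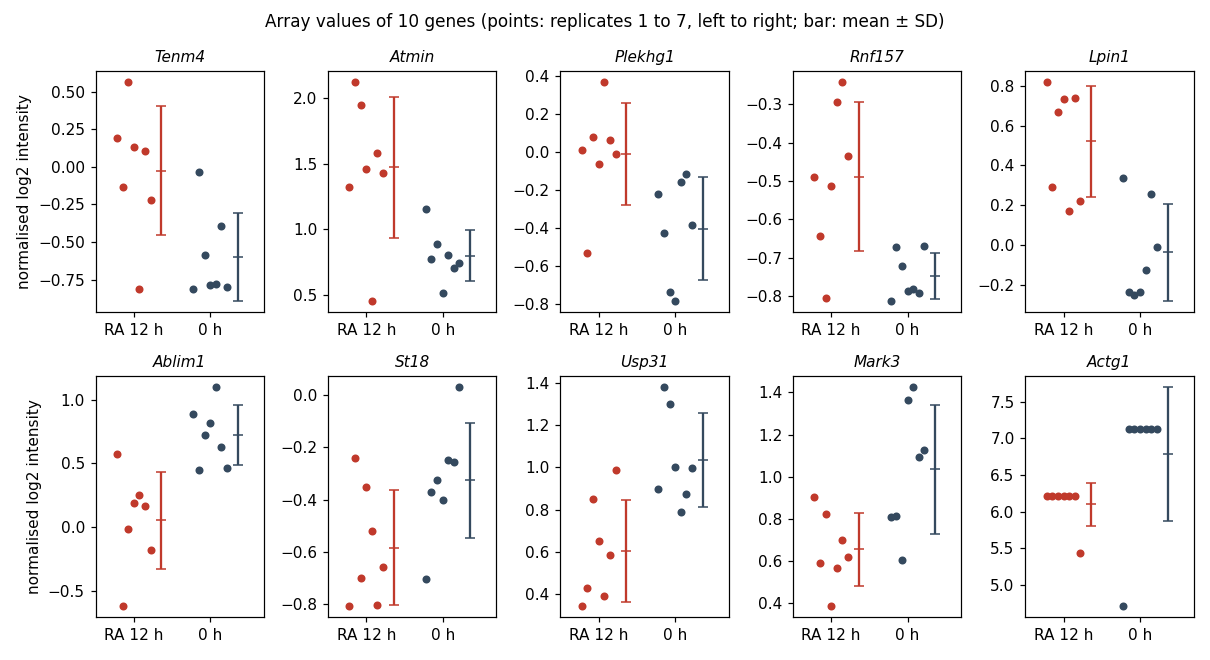
Normalised log2 intensity (vertical axes) of 10 leading genes on each array, with the 12 h retinoic acid group left and the 0 h control right, replicates 1 to 7 running left to right, and mean ± SD beside them. The groups overlap in each gene; for Atmin 6 treated points exceed every control and replicate 5 lies below, and for Ablim1 6 treated points lie below every control.

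The unnamed probes with an unadjusted p under 0.05 were all higher. Probe 439 ran between 3.63 and 5.43 with a median of 4.30 in the 12 h arrays, against 2.18 to 3.63 with a median of 3.63 in the 0 h arrays, a 2.01-fold difference (log2 1.01 ± 0.31 SE, limma adjusted p = 0.393). Probe 168 differed by 0.77 and probe 566 by 0.28. Quantile normalization gives the brightest probes values shared by rank, so that over the 14 arrays probe 439 took 5 distinct values and probe 168 took 3. Probe 168 exchanged ranks with Actg1, so their changes are not independent. On 0 h replicates 2 to 7 Actg1 stood at 7.13 and probe 168 at 6.21 or 5.43. On 12 h replicates 1 to 6 probe 168 stood at 7.13 and Actg1 at 6.21. Probe 566 lay at the floor on 3 of 7 treated and 6 of 7 control arrays.

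Genes around the retinoic acid receptors came first among the functional groups. Of 61 symbols listed as receptors, their partners and co-regulators, 5 were measured and 0 had an unadjusted p under 0.05. Zfp423, a zinc-finger co-activator of the receptors, ran between -0.002 and 0.69 with a median of 0.27 in the 12 h arrays, against 0.16 to 1.19 with a median of 0.76 in the 0 h arrays, a log2 fold change of -0.33 (95% interval -0.69 to 0.03). Treated arrays lay below the control mean in 5 of 7 cases. Acin1, known to repress receptor activity, had a log2 fold change of 0.23 (-0.18 to 0.64), which as deposited was -0.24. Rere, an atrophin family protein that promotes retinoic acid signalling, had one of 0.18 (-0.28 to 0.64). Asxl1 (0.06) and Med13l, a Mediator subunit (0.03), were nearest 0. The group's median was 0.06, beside -0.01 over all probes, and as deposited 0.11 with 3 higher and 2 lower.

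Retinoid half-sites in promoters were then set beside the 20 named genes with an unadjusted p under 0.05. The motif searched was AGGTCA on both strands, in RefSeq promoter windows (GRCm38.p6) of 250 bases before to 50 after a gene's start. It occurred in 16.3% of 32851 windows of all genes and in 10.5% of 591 windows of the array's genes, where 398 of 473 genes had a window. Of the 20 genes, 17 had a window, and 2 of their 26 windows held it, those of Lpin1 and Tbc1d14. The classical element of the receptor dimer, DR5, was searched as 2 half-sites in direct repeat with 5 bases between them, allowing G for the first base and T for the third, and occurred in 0 windows of the array's genes and in 0.0974% of all windows. The same repeat with 2 bases between the half-sites, DR2, occurred in 1 window of the array's genes (0.169%) and in 0.268% of all windows. None of the windows of the 20 genes held it. The 2 windows with the half-site AGGTCA are shown because no other window of the 20 genes held it. Lpin1 and Tbc1d14 lie on opposite sides of the comparison. Both windows are on the minus strand, at chr12:16610917-16611216 for Lpin1 and chr5:36582348-36582647 for Tbc1d14, with the half-site in capitals starting at -74 and -158 from the gene's start. A match describes letters and is not a binding site.
Lpin1: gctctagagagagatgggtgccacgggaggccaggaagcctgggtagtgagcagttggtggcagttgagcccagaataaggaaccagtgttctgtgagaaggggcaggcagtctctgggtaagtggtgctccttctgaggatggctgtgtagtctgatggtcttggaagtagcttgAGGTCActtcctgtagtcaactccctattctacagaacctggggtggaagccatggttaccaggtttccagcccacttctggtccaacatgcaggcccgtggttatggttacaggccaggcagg
Tbc1d14: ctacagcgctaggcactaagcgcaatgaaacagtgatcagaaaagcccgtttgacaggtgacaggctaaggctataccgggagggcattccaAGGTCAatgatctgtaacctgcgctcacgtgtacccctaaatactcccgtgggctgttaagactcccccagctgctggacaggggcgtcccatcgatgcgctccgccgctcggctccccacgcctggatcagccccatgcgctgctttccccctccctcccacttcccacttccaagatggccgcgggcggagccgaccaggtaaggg

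Transcription factors and zinc-finger proteins numbered 31, with 19 higher and 12 lower (16 and 15 as deposited) and a median log2 fold change of 0.02. In this group 3 genes (9.68%) had an unadjusted p under 0.05, beside 3.99% of all probes. Atmin and St18 were 2 of the 3. Myt1, a zinc-finger activator of neuronal differentiation, ran between 0.35 and 1.21 with a median of 0.74 in the 12 h arrays, against 0.09 to 0.94 with a median of 0.19 in the 0 h arrays. Treated arrays lay above the control mean in 6 of 7 cases, a log2 fold change of 0.39 ± 0.19 SE (limma adjusted p = 0.994). Myt1 and St18, related factors, thus lay on opposite sides, though neither passed after adjustment. Chromatin regulators numbered 18, with 8 higher and 10 lower (7 and 11 as deposited), a median of -0.01 (-0.09 as deposited) and 0 at an unadjusted p under 0.05. Nearest were Phf8, a histone demethylase (0.50, 95% interval -0.01 to 1.01), Hdac5, a deacetylase (-0.39, -0.86 to 0.07), and Setdb1, a histone H3 lysine methyltransferase (-0.24, -0.79 to 0.31).

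The balance of the neuronal genes depended on the scaling. Of 25 axon guidance and surface genes 12 were higher and 13 lower after quantile normalization (median -0.0003), against 20 higher and 5 lower as deposited (median 0.17). Tenm4 was the 1 gene of the 25 at an unadjusted p under 0.05, 4.00% beside 3.99% of all probes. Tenm3, a second teneurin, ran between 0.90 and 1.60 with a median of 1.13 in the 12 h arrays, against 1.02 to 1.92 with a median of 1.63 in the 0 h arrays (log2 -0.44, 95% interval -0.91 to 0.02). The point estimates of these teneurins thus had opposite signs. Synapse and vesicle release genes numbered 30, with 15 on each side and a median of -0.004 after quantile normalization, against 23 higher and 7 lower as deposited (median 0.15). None of the 30 had an unadjusted p under 0.05 after quantile normalization. In 29 of the 30 the 95% interval lay within a 2-fold change. Dlgap4, a scaffold of the postsynapse, differed by 0.22 (-0.14 to 0.59), and Cltc, the clathrin heavy chain, by -0.43 (-1.14 to 0.28), where 12 h replicate 1 lay above every control and the other 6 treated arrays below every control. Dnm3, a dynamin, lay at the floor on 5 treated and 6 control arrays, so its change of -0.03 carries little.

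Cytoskeletal genes spread to both sides. Actin and adhesion genes numbered 20, with 9 higher and 11 lower (11 and 9 as deposited). The 2 at an unadjusted p under 0.05, Ablim1 and Actg1, were both lower. They made up 10.0% of the group, beside 3.99% of all probes counting both sides and 1.91% counting lower ones. Cyfip2, part of the WAVE complex that drives branched actin growth, ran between -0.24 and 0.70 in the 12 h arrays, against -0.57 to 0.36 in the 0 h arrays (log2 0.26, 95% interval -0.15 to 0.68). Of 27 microtubule, motor and centrosome genes 13 were higher and 14 lower (median -0.03), against 11 and 16 as deposited (median -0.09), and Mark3 was the 1 at an unadjusted p under 0.05 (3.70%, beside 3.99% of all probes). Cep192, which organises the centrosome, differed by -0.31 (-0.65 to 0.02), and Mtus2, a microtubule-binding protein, by -0.30 (-0.70 to 0.10).

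GTPase exchange factors and activating proteins numbered 30, with 18 higher and 12 lower (19 and 11 as deposited) and a median of 0.06. The 3 at an unadjusted p under 0.05 (10.0%, beside 3.99% of all probes) were Plekhg1 and Arfgef3, both higher, and Tbc1d14, lower. Kinases, phosphatases and phosphoinositide genes numbered 31, with 13 higher and 18 lower (median -0.02), against 15 and 16 as deposited. The 3 at an unadjusted p under 0.05, Mark3, Ulk1 and Plce1, were lower. They made up 9.68% of the group, beside 3.99% of all probes counting both sides and 1.91% counting lower ones. In all 31 the 95% interval lay within a 2-fold change.

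Protein turnover was covered by 33 ubiquitin ligases, deubiquitinases and adaptors, with 16 higher, 17 lower and a median of -0.002 after quantile normalization, against 12 higher and 21 lower as deposited (median -0.24). Rnf157 and Usp31 were the 2 at an unadjusted p under 0.05 (6.06%, beside 3.99% of all probes), one on each side. Autophagy and endolysosomal genes numbered 26, with 17 higher and 9 lower (14 and 12 as deposited) and a median of 0.07. The 2 at an unadjusted p under 0.05, Ulk1 and Tbc1d14, were lower. They made up 7.69% of the group, beside 3.99% of all probes counting both sides and 1.91% counting lower ones. Tecpr1, which tethers autophagosomes to lysosomes, differed by -0.23 (95% interval -0.53 to 0.08), with 3 treated and 2 control arrays at the floor.

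RNA processing, export and ribosome biogenesis genes numbered 23, with 12 higher and 11 lower (median 0.001) after quantile normalization, against 4 higher and 19 lower as deposited (median -0.15), and 0 had an unadjusted p under 0.05 after quantile normalization. Nearest were Son, a splicing co-factor (-0.48, 95% interval -1.03 to 0.06), Tnrc6c, of the microRNA silencing complex (0.43, -0.06 to 0.93), and Xpo6, the nuclear export receptor of actin (0.31, -0.06 to 0.68). Of 6 cell cycle, cohesion and DNA damage genes, Atmin was the 1 at an unadjusted p under 0.05 (16.7%, beside 3.99% of all probes). Pds5b, a cohesin regulator, differed by -0.12 (-0.41 to 0.18) and Cdk19, a Mediator kinase, by 0.13 (-0.36 to 0.62). Ion channels, transporters and metabolic enzymes numbered 12, with 6 on each side (9 higher and 3 lower as deposited) and Lpin1 as the 1 at an unadjusted p under 0.05, 8.33% beside 3.99% of all probes. Slc39a14, a metal ion transporter, differed by 0.28 (-0.15 to 0.72) and Dip2b by 0.17 (-0.12 to 0.46).

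**Figure D4:**
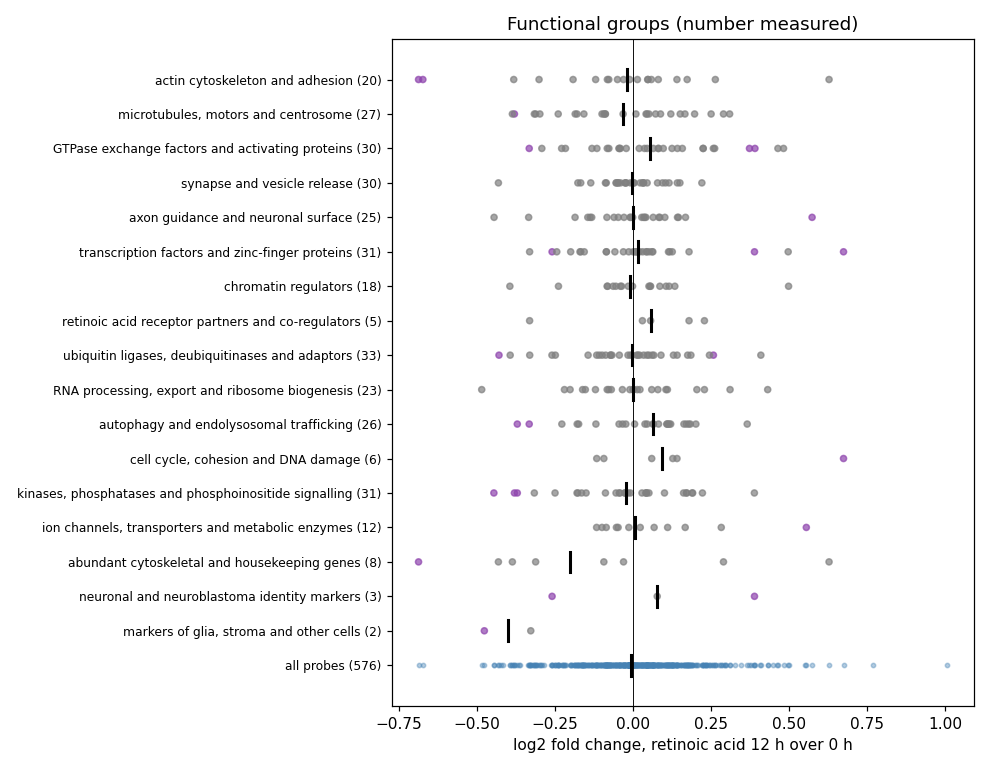
Log2 fold change of retinoic acid 12 h over 0 h (horizontal axis) for each measured gene of 17 functional groups and, in blue, for all 576 probes, after quantile normalization. Purple points have an unadjusted p under 0.05 and black bars are medians, which lie between -0.03 and 0.09 except for the 8 abundant genes (-0.20) and the 2 genes listed as markers of glia and stroma (-0.40).

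The 8 abundant cytoskeletal and housekeeping genes had a median of -0.20, with 2 higher and 6 lower (1 and 7 as deposited). Actg1, gamma-actin, stood at 6.21 on 6 treated arrays and at 5.43 on 12 h replicate 7, against 7.13 on 6 control arrays and 4.71 on 0 h replicate 1. The groups were thus apart except for that control, which lay below every treated array (log2 -0.69 ± 0.32 SE, limma adjusted p = 0.994). Over the 14 arrays it took 4 distinct values, as did Gapdh (-0.31) and Actb (-0.03), and Tubb5 (-0.39) took 3, so these sizes are steps between ranks. Without 0 h replicate 1 the log2 fold change of Actg1 was -0.99, with an adjusted p of 0.248 in limma. The groups then did not overlap, which follows from leaving out the 1 control that overlapped. Over all 576 probes, leaving out single arrays gave 0 to 3 probes without overlap. Actg1 and Actb are near-identical in sequence, and whether their probes share signal was not tested. On median-centred values the group's median was -0.48, beside 0.05 for all probes.

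Cell identity could be checked with few genes. Of 34 neuronal and neuroblastoma markers 3 were measured, Nefh, Myt1 and St18, while Th and Tubb3 were not among the named genes. Their summed linear intensity ran between 4.41 and 5.44 in the 12 h arrays and between 3.66 and 5.43 in the 0 h arrays. St18 lay at the floor on 2 treated arrays, and Myt1 and Nefh on 0. Nefh, the heavy neurofilament subunit, differed by 0.08 (95% interval -0.25 to 0.41), and by -0.30 as deposited. Of 29 genes listed as markers of glia, stroma and other cells 2 were measured, Pxdn and Phldb1 (-0.33, -0.69 to 0.04), both lower and neither at the floor. Their summed intensity ran between 2.19 and 3.56 in the 12 h arrays and between 2.63 and 4.38 in the 0 h arrays. Gfap and Col1a1, on the same list, were not among the named genes, so the 2 genes do not show such cells in this line. The part of these listed genes in the other results was not tested. In bulk RNA fewer cells of a type and less RNA per cell cannot be told apart.

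The neighbouring times place the 12 h values. No probe passed for 12 h minus 6 h, with a smallest adjusted p of 0.441, or for 24 h minus 12 h, with one of 0.296 (limma); 24 and 22 probes had one under 0.05 before adjustment. All times share the 7 control arrays, so values against 0 h are given side by side without a test of likeness. Tenm4 stood at -0.03 at 6 h, 0.57 at 12 h and 0.39 at 24 h, and its step between 6 and 12 h, 0.61, had a limma adjusted p of 0.441. Atmin stood at 0.35, 0.68 and 0.82, and Plekhg1 at 0.13, 0.39 and 0.90. The step of Plekhg1 between 12 and 24 h was 0.50 (limma adjusted p = 0.435), and that of Cyfip2 0.74 (limma adjusted p = 0.296). Ablim1 stood at -0.88, -0.67 and -0.89, Mark3 at -0.54, -0.38 and -0.67, and probe 439 at 1.06, 1.01 and 1.59. Mroh1 stood at -0.25, -0.37 and 0.24, and its step between 12 and 24 h was 0.60 (limma adjusted p = 0.296). Of 576 probes, Tenm4, Plekhg1, Cyfip2, Mark3, Ablim1 and probe 439 passed limma's F test over the 5 times. Their adjusted p in that test lay between 0.00803 and 0.0353, while Atmin, at 0.0551, did not pass it. Atmin did pass the threshold in limma against 0 h at 6 h, at 24 h or at both. The test covered all 576 probes, and passing it was itself a reason for naming a probe. That these probes are among the named ones thus describes the choice. The test spans the 5 times together, so a pass does not place a change at 12 h.

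**Figure D5:**
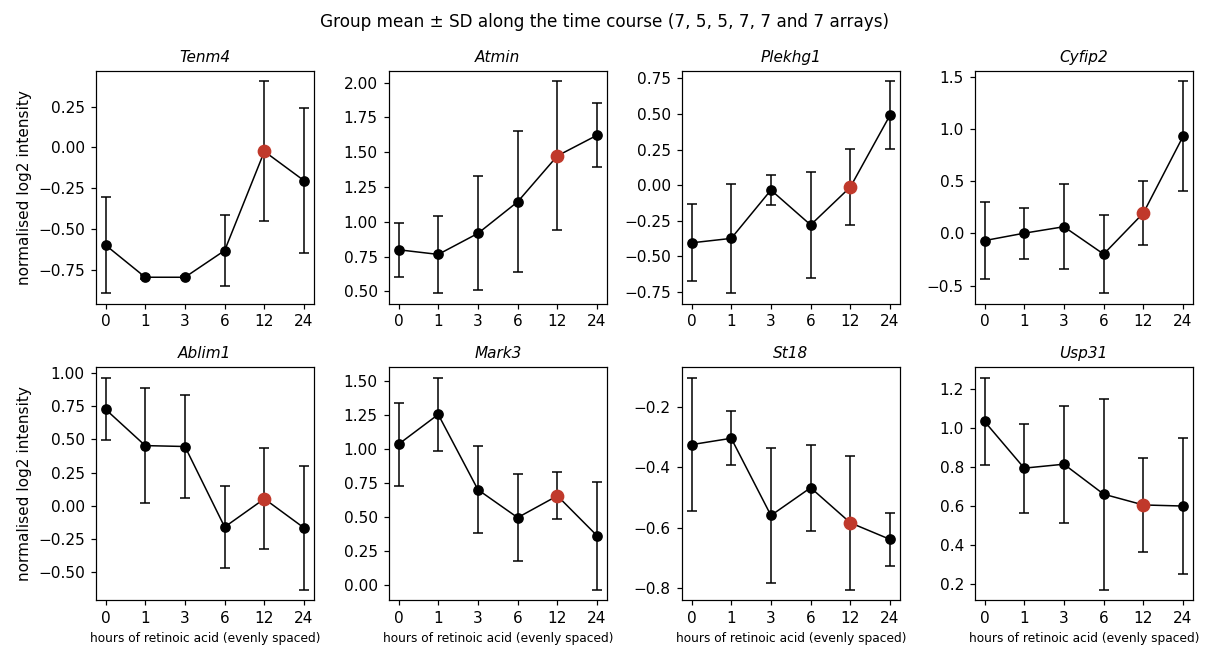
Group mean ± SD of the normalised log2 intensity (vertical axes) of 8 genes at 0, 1, 3, 6, 12 and 24 h (evenly spaced horizontal axis), with the 12 h mean in red. Tenm4 is highest at 12 h, Plekhg1 and Cyfip2 lie higher at 24 h than at 12 h, and Ablim1 and Mark3 lie below their 0 h mean at 6, 12 and 24 h.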

How the data were processed

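Single-colour arrays were read on an FLA-8000 scanner, with Phoretix for quantification, per the labels' protocols, whose text breaks off there. What the authors deposited was 1 linear intensity per probe and array. Background correction, scaling and floor are not given in the sources used here. Spot background is unknown. Genes were named from the platform annotation, and 472 of 473 were found in a RefSeq table (GRCm38.p6). The deposited intensities were taken to log2, quantile normalised over all 38 arrays and fitted with limma (version 3.58.1, R 4.3.3) with the 6 groups as factor, 32 residual degrees of freedom and Benjamini-Hochberg adjustment over 576 probes; the tests were checked on simulated data. Named genes were the 12 of smallest p on each side, probes past the threshold at 6 or 24 h or in the F test, and the 3 of smallest p in each list. The comparison, its members and the gene lists were chosen with earlier results of these data known, so counts over lists are descriptions. Some genes, such as Mark3, Ulk1, Tbc1d14, Actg1 and Atmin, are counted in several lists.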

Additional observations from a re-analysis of the deposited data

Results flagged for a closer look

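Of 98 groups of 7 arrays checked, for the 48 named probes and the array range in both conditions, 10 held 1 array far from the others by Dixon's criterion, which chance meets in about 1 group in 20. After 12 h of retinoic acid these were Actg1 at 5.43 on replicate 7, Sorcs2 at 0.15 on replicate 3, Cltc at 2.63 and Sel1l3 at 0.70 on replicate 1, and probe 439 at 5.43 on replicate 2. In the 0 h control they were Actg1 at 4.71, Setdb1 at -0.60, Tenm3 at 1.02 and Arrdc3 at -0.56, on replicate 1, and Dnm3 at -0.70 on replicate 3.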

How the results depend on the processing

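The count of calls, 0 of 576 in limma, was 1 with no normalization after deposit (Rnf157, log2 0.48, adjusted p = 0.043) and 2 with array quality weights (Atmin and Tenm4, adjusted p = 0.00992 and 0.00413). It was also 2 without the 5 arrays of lowest rank correlation, an alternative chosen after seeing the data (Atmin 0.88 and Tenm4 0.70, adjusted p = 0.0368 each), one of which is 12 h replicate 5. Leaving out single arrays gave 0 to 2 calls, the 2 without 12 h replicate 5. The 23 probes with an unadjusted p under 0.05 became 56 (31 higher, 25 lower) with no normalization, 58 (28 and 30) with median centring, 52 (30 and 22) with weights, 59 (12 and 47) with trend and robust variances, 35 (18 and 17) without those 5 arrays, and 17 to 32 leaving out single arrays. The 0 probes without overlap became 2 with no normalization or without the arrays that never reach the floor (Rnf157 and Plekhg1 in both), 1 with median centring (Rnf157), 1 without the 5 arrays (Atmin), and 0 to 3 leaving out single arrays. Intervals within 2-fold, 554 in the main fit, fell to 522 with no normalization, 510 with median centring and 518 without the arrays that never reach the floor. The other settings that kept all 576 probes and arrays or left out chosen arrays gave 544 to 572, and leaving out single arrays gave 546 to 553. The range difference, leaving out single arrays, ran between -0.46 and -0.24 (exact permutation p between 0.053 and 0.242). With the replicate number as a block, 0 probes passed and 34 had an unadjusted p under 0.05. Whether the numbers pair the samples was not settled. Correlations of same-numbered deviations ran between -0.43 and 0.45, with a median of 0.285 beside -0.032 for arrays of other numbers. Of 7 treated arrays 1 correlated best with its own number. Of 48 named probes 43 kept their sign in every setting run. Dnm3, Acin1, Xpo6 and Nefh turned to 0.16, -0.24, -0.024 and -0.30 with no normalization and to 0.13, -0.27, -0.054 and -0.33 with median centring, Nefh to -0.059 with weights, and Setdb1 to 0.0014 with the array range as a covariate. The causes were not tested.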
